A study of Homo sapiens with 3 samples.

Results

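Heterogeneous nuclear ribonucleoproteins (hnRNPs) are abundant nuclear proteins that coat nascent transcripts. They influence splice-site choice, nuclear export, stability and translation of messenger RNA, and in splicing several of them, hnRNP A1 above all, act against serine/arginine-rich (SR) proteins at shared exons. The 10 genes described here encode abundant hnRNPs with different RNA preferences: HNRNPA1, HNRNPA2B1, HNRNPC, HNRNPD, HNRNPF, HNRNPH1, HNRNPK, HNRNPL, HNRNPM and HNRNPU. They were taken by symbol from a table of 57268 gene identifiers, and each symbol matched 1 row.

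Total RNA of HEK 293T cells, a line derived from embryonic kidney (the sample titles write HEK293), was sequenced as 3 libraries, and every group had a single one. The first group overexpressed SRSF9 and ADAR2, the second overexpressed ADAR2 alone, and the third was wild type without overexpression (control). ADARB1 encodes ADAR2, an editing enzyme that converts adenosines of double-stranded RNA into inosines, and SRSF9 encodes an SR splicing factor. The series addresses the effect of SRSF9 on sites that ADAR2 edits. The labels name no vector control and do not say how overexpression was achieved, so differences from the control cannot be told apart from those of introducing a construct.

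The libraries held 97875935 reads for ADAR2 with SRSF9, 132887974 for ADAR2 and 152878282 for the control. Levels are in CPM, the read count of a gene per 1000000 reads of its library, after scaling library sizes by TMM. ADARB1 stood at 13647 CPM, 16100.0 CPM and 113.6 CPM in that order, and SRSF9 at 18288, 369 and 372 CPM, so both genes followed the labels. Genes that cells of this lineage are known to express, among them the neurofilament gene NEFM and the oncofetal LIN28B, were all above 3 reads in each library (9 of 9), although none of them is particular to this line. Of 11 erythroid markers, 7, 7 and 9 were above 3 reads, and their summed level was 1342, 18.2 and 16.2 CPM, with HBD and HBB carrying 946 and 383 CPM of the first of these sums. The other erythroid markers were each at 6.54 CPM or less in every library, so the rise of the sum lay in HBD and HBB. Among these others, HBA1 was at 6.28, 6.54 and 5.06 CPM and HBA2 at 5.38, 5.67 and 4.55 CPM. AHSP, a chaperone of haemoglobin made by red cell precursors, had 1 read with ADAR2 and SRSF9 and 0 reads in the other two libraries. Summed levels of white blood cell markers (4.38 to 5.02 CPM), fibroblast markers (33.6 to 39.3 CPM) and other epithelial markers (0.323 to 1.26 CPM) lay in narrower ranges. KRT5 was at 0 in each library. The part of these differences in the hnRNP values was not tested, and in such bulk RNA fewer cells of a type and less RNA per cell cannot be told apart.

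A feature that sets some of these genes apart is the number of copies in the genome that carry their name. The table holds 102 rows with a gene's symbol followed by P and a number, or the symbol HNRNPA1L2, and 76 of them belong to HNRNPA1. GENCODE v29 annotates 96 as processed pseudogenes, which are intronless copies of a messenger RNA, 3 as unprocessed pseudogenes, which arise by duplication, and 3 as protein-coding. The 60-base stretches below set HNRNPC and HNRNPK beside their most abundant copies. These stretches were chosen to hold 2 differing bases each, so their number of differences does not measure similarity. They come from the coding sequence of the gene's principal transcript (GENCODE v29) and the matching bases of the copy, written 5′ to 3′, with positions counted from the first base of the start codon. Capitals mark the bases that differ between the gene and the copy.

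Bases 356 to 415 of HNRNPC (chromosome 14) are set beside HNRNPCP2 (chromosome 2).
HNRNPC: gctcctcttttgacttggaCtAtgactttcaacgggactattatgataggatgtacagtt
HNRNPCP2: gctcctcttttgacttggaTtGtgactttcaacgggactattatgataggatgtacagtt

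Bases 5 to 64 of HNRNPK (chromosome 9) are set beside HNRNPKP4 (chromosome 3).
HNRNPK: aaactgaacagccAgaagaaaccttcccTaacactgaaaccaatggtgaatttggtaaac
HNRNPKP4: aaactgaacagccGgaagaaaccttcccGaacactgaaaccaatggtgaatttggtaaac

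Over the whole coding sequence, HNRNPA1P10 differed from HNRNPA1 at 4 of 959 aligned bases, HNRNPA1P48 at 6 of 960 and HNRNPA1L2 at 15 of 960. HNRNPCP2 differed from HNRNPC at 10 of 875 aligned bases, and HNRNPKP4 from HNRNPK at 47 of 1385. Of all 50-base windows in the HNRNPA1 coding sequence, 93.7% also occur in a transcript of another gene. That share was 52.7% for HNRNPC, 45.6% for HNRNPL and 28.6% for HNRNPK. It was 2.07% or less for HNRNPD, HNRNPU and HNRNPH1, and no window of HNRNPA2B1, HNRNPF or HNRNPM was shared. For HNRNPL, 22.2% of windows occur in its named copies, and most of the rest lie in an overlapping gene that had 0 reads in each library. How reads that match several places were counted is not given in the sources used here, so values of HNRNPA1, HNRNPC, HNRNPL and HNRNPK carry that uncertainty.

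In all 3 libraries the 10 genes were strongly expressed. Together they took 1163980 reads, or 1.189% of the total, in the library with ADAR2 and SRSF9 (95% exact binomial interval 1.187% to 1.191%), 1.138% in the ADAR2 library (1.136% to 1.140%) and 1.170% in the control (1.169% to 1.172%). These intervals, like all intervals below, cover counting error only. By mean CPM, HNRNPA1 ranked 17 and HNRNPA2B1 30 among all genes in the table, and the lowest of the 10, HNRNPF, ranked 528. Each passed the filter of a mean of 1 CPM, and each had a mean above 100 CPM.

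Per kilobase of the longest annotated transcript, HNRNPA1 was highest in each library, at 997.7, 898.8 and 903.6 CPM per kilobase with ADAR2 and SRSF9, with ADAR2 and in the control. HNRNPA2B1 followed at 427.6, 407.4 and 423.4 CPM per kilobase, and HNRNPU, whose longest transcript has 13084 bases, was lowest at 55.9, 48.0 and 52.9. The order of the 10 by this measure was the same in the 3 libraries: HNRNPA1, HNRNPA2B1, HNRNPC, HNRNPK, HNRNPH1, HNRNPM, HNRNPD, HNRNPL, HNRNPF and HNRNPU. It rests on the length chosen. With the length of the principal transcript, HNRNPA2B1 came first, at 1570, 1496 and 1555 CPM per kilobase.

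**Figure D1:**
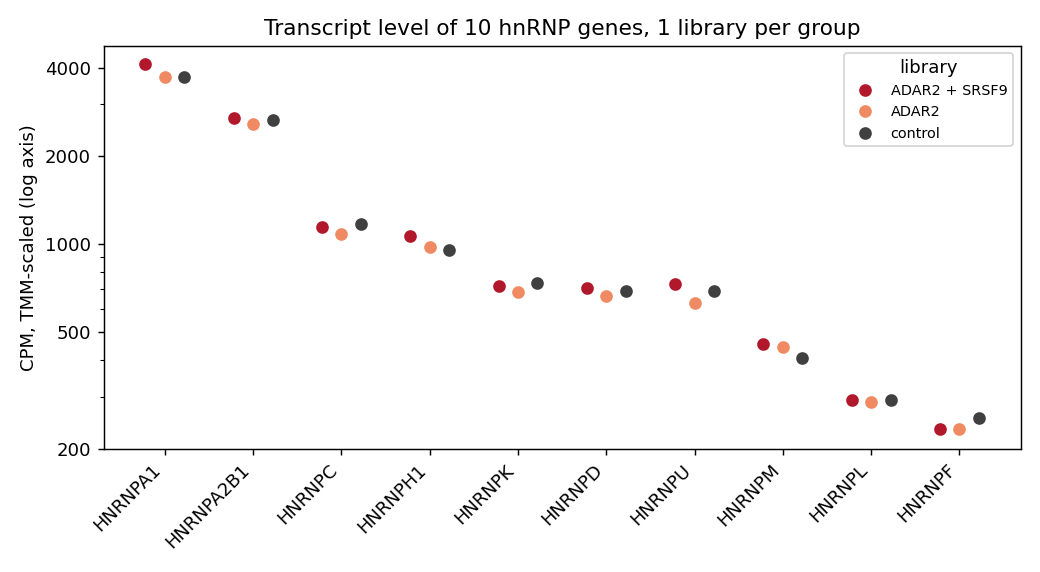
Level of each hnRNP gene in each library, in CPM after TMM scaling on a log axis, with 1 point per library and genes ordered by mean level. Within a gene the highest library is 1.02 to 1.16 times the lowest, while the genes span from 233 CPM (HNRNPF) to 4111 CPM (HNRNPA1).

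With 1 library per group there is no spread between replicates, and no difference below has a replicate check or a p-value. Ratios are given with a 95% counting interval. A gene was counted as higher or lower when its ratio was 1.1-fold or more and the interval excluded 1, a small limit, since none of the 10 reached 1.2-fold in any comparison. Among the 16072 genes with a mean of 1 CPM or more, 5.72% were higher and 8.21% lower by 1.2-fold in ADAR2 with SRSF9 against ADAR2, 7.43% and 6.46% in ADAR2 against control, and 13.8% and 12.7% in ADAR2 with SRSF9 against control. Such intervals are very narrow at this depth: in the comparison of ADAR2 with SRSF9 against ADAR2, 45.3% of the 1864 genes with a mean of 100 CPM or more had an interval wholly above 1, and 28.1% wholly below. An interval that excludes 1 therefore separates 2 libraries, not 2 conditions.

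The library with ADAR2 and SRSF9 was set against ADAR2 alone, a contrast whose labels differ by SRSF9. ADARB1 differed as well, at a ratio of 0.848 (0.846 to 0.849), and the part of that difference in the hnRNP values was not tested. Here the hnRNP genes were slightly higher as a group, with 9 of 10 ratios above 1. That held for 53.7% of all genes tested and for 1115 of 1864 genes with a mean of 100 CPM or more. The median log2 ratio was 0.077, against 0.012 over all genes tested and 0.018 over genes with a mean of 100 CPM or more. Summed reads of the 10 were 1.078 times the ADAR2 level (1.075 to 1.081). HNRNPU and HNRNPA1 were higher by 1.1-fold, which is 2 of 10 (1 of 10, HNRNPU, under DESeq2 size factors, plain totals, totals without mitochondrial genes, ADARB1 and SRSF9, or with copies added), where 14.1% of all genes tested and 6.6% of genes with a mean of 100 CPM or more were. None was lower by 1.1-fold, where 13.3% of all genes and 4.77% of those with a mean of 100 CPM or more were. With plain totals in place of TMM the median log2 ratio was 0.032. HNRNPL (-0.024) and HNRNPM (-0.008) were then below 0 beside HNRNPF.

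HNRNPU, a chromatin-associated protein also called scaffold attachment factor A, was at 731 CPM with ADAR2 and SRSF9, against 628 CPM with ADAR2. Its ratio of 1.164 (1.152 to 1.175) was the highest of the 10. The control stood between these at 693 CPM. In the comparison of ADAR2 against control the same ADAR2 library gave HNRNPU the lowest ratio of the 10, 0.907 (0.899 to 0.916). The 2 ratios share that library, which by CPM is the low one of the 3 for this gene. With the GC trend described below removed, the log2 ratio of HNRNPU in ADAR2 against control was 0.018, and the ADAR2 library was no longer the low one. HNRNPU-AS1 is antisense by its symbol alone, since its identifier was not found in GENCODE v29. The row of that name was at 51.8, 53.6 and 67.2 CPM with ADAR2 and SRSF9, with ADAR2 and in the control. Its ratio was 0.966 (0.932 to 1.002) against ADAR2, where HNRNPU was higher, and 0.798 (0.775 to 0.823) in ADAR2 against control, where HNRNPU was lower too. Whether reads were assigned by strand is not given in the sources used here.

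HNRNPA1 encodes the most studied antagonist of SR proteins in splice-site choice. It was at 4111 CPM with ADAR2 and SRSF9, 3704 CPM with ADAR2 and 3724 CPM in the control, so the library with SRSF9 was the high one. The ratio was 1.110 (1.105 to 1.115) against ADAR2 and 1.104 (1.0996 to 1.109) against the control, both close to the 1.1-fold limit. The first fell under it with DESeq2 size factors (log2 ratio 0.137), plain totals (0.106) and totals without mitochondrial genes, ADARB1 and SRSF9 (0.133). The second fell under it with plain totals (0.098) and upper-quartile scaling (0.136). Both did with the reads of copies added. HNRNPA2B1, its close relative with roles in splicing and messenger RNA transport, was at 2687, 2560 and 2660 CPM. Here the ADAR2 library was the low one, and the ratio of 1.049 (1.044 to 1.055) against ADAR2 came with 1.010 (1.005 to 1.015) against the control. By CPM the related pair thus differed in which library stood apart. With the GC trend described below removed, both rose from the control to ADAR2 and on to ADAR2 with SRSF9. Log2 ratios of HNRNPA1 and HNRNPA2B1 were then 0.095 and 0.081 in ADAR2 against control. In ADAR2 with SRSF9 against ADAR2 they were 0.14 and 0.078.

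HNRNPC binds uridine tracts and keeps cryptic exons, many of them in Alu repeats, out of messenger RNA. It was at 1144, 1080 and 1171 CPM with ADAR2 and SRSF9, with ADAR2 and in the control. HNRNPK, which binds cytidine-rich sequences through KH domains, was at 716, 684 and 735 CPM. By CPM both were lowest with ADAR2 and highest in the control, an order that turns for the control once the GC trend described below is removed. Their ratios against ADAR2 were 1.060 (1.052 to 1.068) for HNRNPC and 1.048 (1.038 to 1.058) for HNRNPK. HNRNPD, also called AUF1 and known for binding AU-rich elements of unstable messenger RNAs, was at 706, 665 and 689 CPM. It too was lowest with ADAR2 by CPM, at a ratio of 1.062 (1.051 to 1.072), but with the GC trend removed the control was lowest.

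HNRNPH1 and HNRNPF encode related proteins that bind runs of guanosines, and their values went different ways. HNRNPH1 was at 1066, 978 and 954 CPM, highest with ADAR2 and SRSF9 and lowest in the control. HNRNPF was at 232.8, 232.8 and 253.9 CPM, highest in the control and level between both overexpressing libraries. Against ADAR2 the ratio was 1.089 (1.080 to 1.098) for HNRNPH1 and HNRNPF was level, with a log2 ratio of -0.00024 and an interval of 0.983 to 1.017 on the ratio.

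HNRNPL, which prefers CA-rich RNA, was at 292.4, 288.2 and 292.8 CPM and varied least over the libraries. HNRNPM, which binds GU-rich RNA, was at 455, 444 and 407 CPM, with the control lowest. Against ADAR2 these were ratios of 1.015 (0.999 to 1.031) and 1.026 (1.013 to 1.039). HNRNPL and HNRNPF were the 2 of the 10 whose interval included 1 in this comparison.

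**Figure D2:**
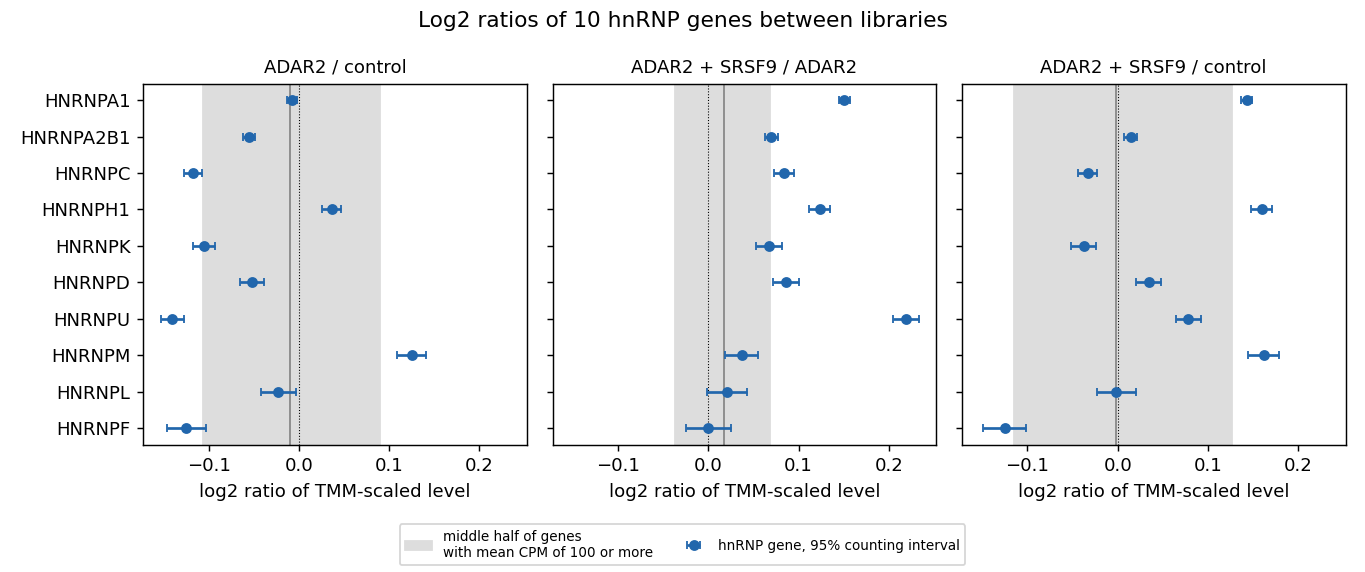
Log2 ratio of the TMM-scaled level of each hnRNP gene in the 3 comparisons, with 95% counting intervals (points and bars). The grey band spans the 25th to 75th percentile of the 1864 genes with a mean of 100 CPM or more and the grey line is their median; in the middle panel HNRNPU (0.22) and HNRNPA1 (0.15) lie furthest right, and in the left panel 8 of 10 points lie below 0.

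ADAR2 alone was then set against the control. The hnRNP genes were on balance slightly lower: 8 of 10 ratios were below 1, where 50.2% of all genes tested were, and the median log2 ratio was -0.054 against -0.00094 over all genes tested. HNRNPU was lower by 1.1-fold, which is 1 of 10, where 19.9% of all genes tested and 17.5% of those with a mean of 100 CPM or more were, and none was higher, where 20.9% and 15.2% were. A single call is below that background. After HNRNPU the lowest ratios were 0.917 (0.904 to 0.931) for HNRNPF, 0.922 (0.916 to 0.928) for HNRNPC and 0.930 (0.922 to 0.938) for HNRNPK. HNRNPM, at 1.090 (1.078 to 1.103), and HNRNPH1, at 1.025 (1.018 to 1.033), were the 2 above 1.

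Log2 ratios against the control ran with transcript GC content. In ADAR2 against control the median was -0.15 over 1919 protein-coding genes in the lowest 1 of 5 groups by GC content (up to 40.6%) and 0.16 over the 1919 in the highest (57.9% and above). In ADAR2 with SRSF9 against ADAR2 these medians were -0.0063 and 0.060. HNRNPA2B1 (39.9% GC), HNRNPC (39.2%), HNRNPD, HNRNPH1 and HNRNPU fall in the lowest group. The longest transcripts of HNRNPD, HNRNPH1 and HNRNPU held 36.1%, 36.3% and 37.9% GC, and that of HNRNPM, with the highest ratio, 54.9%. The median over protein-coding genes with a mean of 10 CPM or more was 47.9%. HNRNPF, near that median at 48.0%, had a ratio of 0.917 in ADAR2 against control. With the trend over GC removed, the hnRNP median for ADAR2 against control was 0.034 in place of -0.054, and 8 of 10 genes were above 0 in place of 2. Over all genes tested the median was then 0.0065, with 8402 of 16072 above 0. HNRNPU was then at 0.018, HNRNPH1 at 0.20, and HNRNPC, HNRNPK, HNRNPA1, HNRNPA2B1 and HNRNPD, all below 0 before, at 0.024, 0.0073, 0.095, 0.081 and 0.11. HNRNPF and HNRNPL stayed below 0, at -0.089 and -0.023. HNRNPC and HNRNPK turned in ADAR2 with SRSF9 against control as well, to 0.12 and 0.077. The direction of the group in this comparison therefore depends on that correction. It rests on the GC content of the longest annotated transcript of each gene, and that of other transcripts was not tried. In ADAR2 with SRSF9 against ADAR2 the same correction left the median at 0.084, with 9 of 10 genes above 0. Over all genes tested the median was then -0.0038, with 7844 of 16072 above 0.

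The library with ADAR2 and SRSF9 was also set against the control, with both libraries already used above. HNRNPM, HNRNPH1 and HNRNPA1 were higher by 1.1-fold, at 1.118 (1.105 to 1.132), 1.117 (1.108 to 1.126) and 1.104 (1.0996 to 1.109). That is 3 of 10, where 25.5% of all genes tested and 23.2% of those with a mean of 100 CPM or more were higher. None was lower, where 25.2% and 20% were, and 6 of 10 ratios were above 1, where 49% of all genes tested were. HNRNPF had the lowest ratio, 0.917 (0.902 to 0.932). The median log2 ratio was 0.024 against -0.0058 over all genes tested. With the GC trend removed it was 0.14 against -0.00040. With that removal 5 of 10 genes were higher by 1.1-fold: HNRNPH1, HNRNPU, HNRNPA1, HNRNPD and HNRNPA2B1. HNRNPM was no longer among them, at a log2 ratio of 0.062. The share of all genes passing the 1.1-fold limit after that removal was not counted, so this number has no background beside it. With plain library totals none was higher and the median was -0.021, and 2 were higher with upper-quartile scaling or with copies added, HNRNPA1 being the one lost.

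The named copies had ratios unlike those of the genes whose symbols they carry. Of the 102 rows, 38 had a mean of 1 CPM or more: 26 copies of HNRNPA1, 5 of HNRNPC, 3 of HNRNPK, 2 of HNRNPL and 1 each of HNRNPD and HNRNPU. Of these, 33 are annotated as processed pseudogenes, 3 as protein-coding, and HNRNPA1P6 and HNRNPLP2 as unprocessed. In ADAR2 with SRSF9 against ADAR2 all 38 had ratios below 1, from 0.398 to 0.929 with a median of 0.714, and the interval lay wholly below 1 for 33. Among the 1094 processed pseudogenes with a mean of 1 CPM or more, 91.8% had a log2 ratio below 0 and 78.2% an interval wholly below 1, so this direction is that of pseudogenes in general in this library. All 6 parent genes had ratios above 1 in the same comparison.

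HNRNPA1L2, annotated as protein-coding, was the most abundant copy, with 15003, 23621 and 25715 reads (156.5, 175.9 and 166.4 CPM) with ADAR2 and SRSF9, with ADAR2 and in the control. HNRNPA1P10 ran close beside it at 150.9, 174.1 and 164.7 CPM, and HNRNPA1P48 was at 93.8, 115.4 and 107.3 CPM. In each of these the ADAR2 library was highest and the library with SRSF9 lowest, the reverse of HNRNPA1 itself, for which the library with SRSF9 was highest. Ratios against ADAR2 were 0.890 (0.871 to 0.908), 0.866 (0.848 to 0.885) and 0.813 (0.792 to 0.834). HNRNPCP2, the main copy of HNRNPC, was at 55.5, 67.6 and 68.5 CPM, a ratio of 0.822 (0.795 to 0.851) against ADAR2. HNRNPKP4 was at 9.72, 14.5 and 14.4 CPM, a ratio of 0.673 (0.621 to 0.727). The main copies of HNRNPL, HNRNPD and HNRNPU, which are HNRNPLP2, HNRNPDP1 and HNRNPUP1, had ratios of 0.692, 0.697 and 0.596 against ADAR2.

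**Figure D3:**
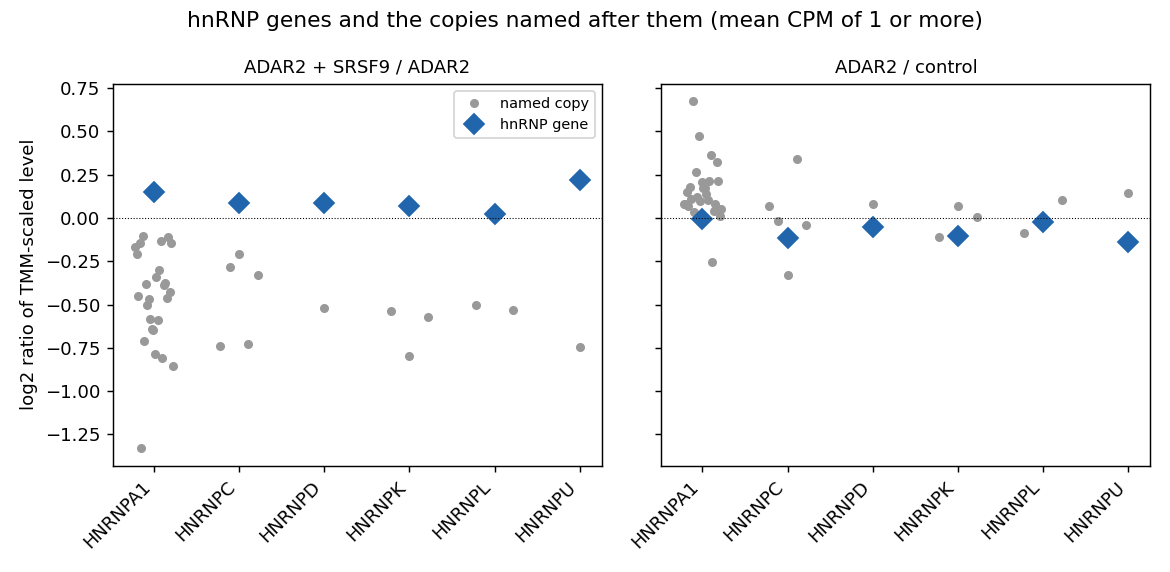
Log2 ratio of the TMM-scaled level for 6 hnRNP genes (blue diamonds) and for the copies named after them with a mean of 1 CPM or more (grey points, 38 rows), in ADAR2 with SRSF9 against ADAR2 (left) and ADAR2 against control (right). On the left all 38 copies lie below 0 and all 6 genes above it; on the right 32 copies lie above 0.

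In ADAR2 against control the copies lay the other way, with 32 of 38 above 1, where 59% of processed pseudogenes were, and a median ratio of 1.073, but their intervals mostly included 1: 13 were wholly above and 1 wholly below, where 25% and 12.2% of processed pseudogenes were. The range was 0.795 to 1.60. Copies with more identity to the parent's coding sequence were more abundant (Spearman's rho 0.74 over the 37 copies that could be aligned), as a description across rows that share libraries and parents.

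Counting gene and copies together changed the calls of HNRNPA1. Copies took 11.9% of the reads of HNRNPA1 and its copies with ADAR2 and SRSF9, 15.3% with ADAR2 and 14.4% in the control. For HNRNPC these shares were 5.16%, 6.66% and 6.23%, for HNRNPL 2.51%, 3.64% and 3.40%, and for HNRNPK 1.93%, 3.08% and 2.85%. With reads of the copies added, HNRNPA1 was at a log2 ratio of 0.094 against ADAR2 in place of 0.15 and of 0.10 against the control in place of 0.14, both under the 1.1-fold limit. HNRNPU, with a single copy that held 0.330%, 0.643% and 0.528% of the reads of both, was at 0.21 against ADAR2 in place of 0.22.

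**Figure D4:**
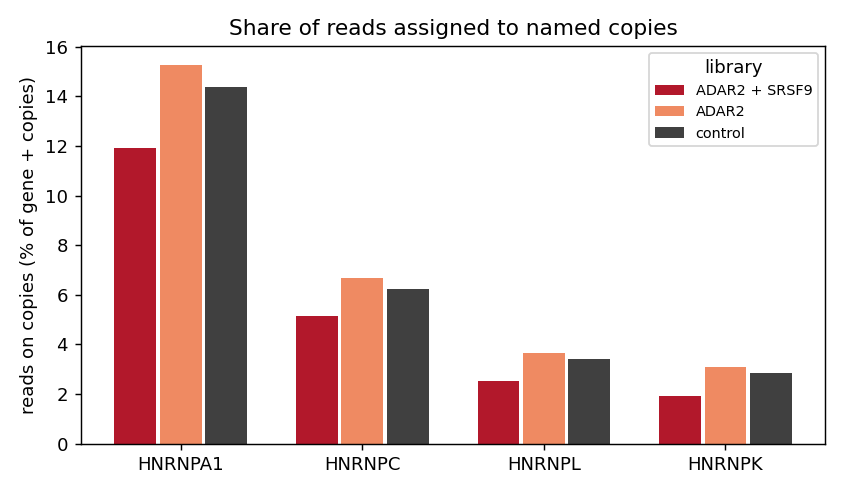
Share of reads on named copies, as a percentage of the reads of the gene and its copies, for the 4 hnRNP genes with the largest shares, 1 bar per library. In each gene the library with ADAR2 and SRSF9 has the lowest share and the ADAR2 library the highest, for HNRNPA1 11.9% and 15.3%.

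Log2 ratios of the 10 hnRNP genes ran from -0.14 to 0.12 in ADAR2 against control. In ADAR2 with SRSF9 against ADAR2 they ran from -0.00024 to 0.22. Those of other RNA-binding proteins of the hnRNP class ran from -0.27 to 0.20 and from -0.13 to 0.17 in these comparisons. Of 25 such genes, among them further HNRNP genes and the PCBP and PTBP families, 2 were higher by 1.1-fold and none lower in ADAR2 with SRSF9 against ADAR2, with a median log2 ratio of 0.025. The larger was RBMX, a splicing regulator also called hnRNP G, at 521 CPM with ADAR2 and SRSF9 and 462 CPM with ADAR2, a ratio of 1.127 (1.114 to 1.141). In ADAR2 against control 1 was higher and 6 lower by 1.1-fold. MATR3, a nuclear matrix protein, was at 460 CPM with ADAR2 and 554 CPM in the control, a ratio of 0.831 (0.822 to 0.839). It was the 1 gene among these 25 and the 10 hnRNP genes that reached 1.2-fold in any comparison, and with the GC trend removed its log2 ratio was -0.11, under the 1.1-fold limit, while RBMX (0.33) and HNRNPH1 (0.33) passed 1.2-fold in ADAR2 with SRSF9 against control. In ADAR2 with SRSF9 against control 3 were higher and 4 lower, and RALY, a relative of HNRNPC, had the largest ratio, at 148 and 127 CPM, or 1.161 (1.136 to 1.186).

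The promoter table of RefSeq (GRCh38.p14) held 15 start-site windows of 300 bases for 9 of the 10 genes, all but HNRNPA1. Their GC content had a median of 66.0% (49.3% to 70.7%) and their number of CpG dinucleotides a median of 29, against 58.7% and 14 over all 35116 windows.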

How the data were processed

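The authors' deposited table holds raw counts, which are whole numbers of reads per gene in 3 libraries. Trizol extraction and strand-preserving (directional) NEBNext Ultra libraries from total RNA are stated per the labels' protocols. For tools and build, the submitters' processing notes list SAMtools, GATK, Picard, STAR and hg19 with no version. Neither the counter nor whether it used strand is named there. Each column was matched to its sample by the library code in the labels.

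TMM factors from edgeR 4.0.16 (R 4.3.3) scaled the library sizes, with values of 0.979 for ADAR2 with SRSF9, 1.01 for ADAR2 and 1.01 for the control. Mitochondrially encoded genes took 6.58%, 6.51% and 6.85% of reads. Log2 ratios used a prior count of 0.5. The 95% counting intervals are exact (Clopper-Pearson) and treat a gene's reads in 2 libraries as a binomial split. The limit set by 3 counts is 0.0313, 0.0223 and 0.0194 CPM. With 1 library per group no test was made. Ratios and intervals were checked on simulated Poisson counts of known fold change. Such counts follow the model that the intervals assume, so that check tests the computation alone. It held no variation between libraries, no GC trend and no reads that match several places.

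Annotation (type, transcripts, GC content) was that of GENCODE v29 for GRCh38, in which 51801 of 57268 identifiers were found once versions were dropped. The counts rest on hg19, and gene coordinates were left out for that reason. Copies were aligned locally to the coding sequence with Biopython. The GC trend was the median log2 ratio in 50 bins of GC content over 9594 protein-coding genes with a mean of 10 CPM or more, smoothed over 5 bins. Other steps used Python 3.11.15, numpy 2.4.6, pandas 2.3.3, scipy 1.17.1 and matplotlib 3.10.9.

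Named genes are the 10 hnRNP genes, ADARB1 and SRSF9. Of the other 25 hnRNP-class genes, those at 1.2-fold in a comparison are named, or else the one with the largest ratio. The most abundant copy of a gene is named, and further copies and the marker genes were chosen after their values were seen. The members and lists were chosen with earlier results of these data known. Alternatives tried were DESeq2 1.42.0 size factors, plain totals, upper-quartile scaling, totals without mitochondrial genes, ADARB1 and SRSF9, a prior count of 5, removal of the GC trend, adding reads of copies, limits of 1.2-fold and 1.5-fold, a mean in place of the median, and other sets of background genes. The length of the principal transcript was added after the data were seen. Some genes and sequences of these lists are not reported here.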

Additional observations from a re-analysis of the deposited data

How the results depend on the processing

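No paired analysis was possible because each group has 1 library. Differences of the size seen here, about 1.1-fold, moved with the scaling. Values follow as median log2 ratio, then summed log2 ratio. In ADAR2 against control (main -0.054 and -0.040) they were -0.039 and -0.026 with DESeq2 size factors, -0.036 and -0.022 without mitochondrial genes, ADARB1 and SRSF9, and the sum was -0.049 with upper-quartile scaling and -0.032 with copies added. Removing the GC trend gave a median of 0.034, the opposite sign. Under DESeq2, the reduced totals and GC removal 1 gene was higher and 0 were lower by 1.1-fold, where the main values were 0 and 1. HNRNPU, lower by 1.1-fold, turned to 0.018 with the GC trend removed.

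In ADAR2 with SRSF9 against ADAR2 (main 0.077 and 0.11) values were 0.063 and 0.095 with DESeq2, 0.032 and 0.064 with plain totals, 0.059 and 0.091 with the reduced totals and 0.065 and 0.086 with copies added. Under each of these 4 settings 1 gene was higher by 1.1-fold in place of 2, HNRNPU. In ADAR2 with SRSF9 against control (main 0.024 and 0.068) plain totals gave -0.021 and 0.023, with 0 genes higher in place of 3 and 1 lower in place of 0. The sum was 0.062 with upper-quartile scaling and 0.053 with copies added, each with 2 genes higher, and the mean over genes was 0.039. GC removal gave a median of 0.14 with 5 genes higher, HNRNPM not among them. Shares of all genes called higher or lower were not recounted under GC removal or the other scalings. At 1.2-fold and at 1.5-fold 0 genes were higher or lower in each comparison. Other sets of background genes leave these values unchanged by construction. Of the single-gene values under alternatives, 134 stayed within the main counting interval, 75 moved beyond it, and 1 that was past the 1.1-fold limit (HNRNPU, above) changed sign. Counting smaller values too, 16 changed sign, 8 of them with the GC trend removed and 4 with plain totals. The cause of these shifts was not tested. Levels per kilobase changed order with the length used.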
